A study of Homo sapiens with 51 samples.

Results

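The 8 genes described here, SIX3, LHX5, LHX2, FEZF1, PAX6, HES3, ZIC2 and ZIC5, encode transcription factors of the forebrain and early nervous system. They were followed in H1 cells, a widely used line of human embryonic stem cells, before and during treatment. The genes were found by matching Ensembl gene IDs to symbols, and all 8 were present among the 58051 gene rows of the count table. They had been chosen for the way their levels differ between the conditions, so their levels and fold changes are given as a description, and their calls in the fit across all genes are only counted.

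The cells were grown in BMP4 alone at 50 ng/mL, or in a mix of 100 ng/mL Activin and 10 ng/mL BMP4 (Activin+BMP4), and sampled at 1, 6, 12, 24, 36, 48, 72 and 96 h in each. Untreated H1 cells kept in mTeSR1 maintenance medium gave the starting point. The conditions therefore differ in the dose of BMP4 as well as in Activin, and the treated cells share a medium (TeSR E5 with insulin, FGF2 and the compound the labels call LY29004, on Matrigel) that the untreated cells did not have. Each of the 17 groups had 3 libraries, 51 in all, from a single cell line, and the labels do not say that replicates were separate cultures, so any p-value measures only the spread between these libraries. A library held 22.8 to 30.4 M counts (median 24.9 M). Levels are in CPM, a gene's counts for every 1 M counts of the adjusted library total, given as mean ± SD with n = 3. Because whole cultures were measured, fewer cells that express a gene and less RNA per cell cannot be told apart.

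The anterior neural plate, from which the forebrain and eyes form, arises where BMP, NODAL and WNT signals are held low, and in culture neural induction is usually obtained by blocking the BMP and Activin receptors. SIX3 is a homeodomain factor needed for the rostral forebrain and the eye field, where it represses WNT genes. LHX5 and LHX2 are LIM-homeodomain factors, LHX5 acting in early forebrain patterning and LHX2 in the eye field and cortex. FEZF1 is a zinc finger repressor of the rostral forebrain and olfactory system. PAX6, a paired-box factor, is known for its part in eye, cortex and spinal cord development and is also used in pancreatic islet cells. HES3 is a bHLH repressor of the HES family, and ZIC2 and ZIC5 are zinc finger factors of the neural plate and neural folds. ZIC2 is also expressed in pluripotent cells.

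Most defining markers of forebrain cells were low in these cultures. Among the forebrain markers examined, OTX2, which is also a gene of pluripotent cells and anterior endoderm, reached 295 ± 23 CPM at 96 h of Activin+BMP4. HESX1 reached 12.7 ± 2.18 CPM at 72 h of BMP4 and RAX 6.21 ± 2.06 CPM at 96 h of BMP4. The highest group means were 2.36 CPM for EMX2 and 0.115 CPM for SIX6. The summed level of 8 pluripotency markers, SOX2 among them, was 4560 CPM at 96 h of BMP4 (4470 to 4730), 6950 CPM at 96 h of Activin+BMP4 (6820 to 7060) and 8740 CPM in untreated cells. At 96 h the summed level of 10 surface ectoderm and amnion markers was 3220 CPM in BMP4 (2930 to 3480), 427 CPM in Activin+BMP4 (325 to 480) and 257 CPM in untreated cells. The summed level of 8 endoderm markers was 246 CPM in BMP4 (223 to 266), 4120 CPM in Activin+BMP4 (3400 to 4520) and 7.45 CPM in untreated cells at that stage, and 8 mesoderm markers summed to 372, 230 and 9.26 CPM in the same groups. Their part in the levels of the 8 genes was not tested. The first replicate of BMP4 at 12 h, the second of Activin+BMP4 at 48 h and the third of Activin+BMP4 at 96 h stood apart. In each of these 3 libraries, the mean squared count difference from the nearer replicate was at least 3 times that between the other replicates. Squared differences were scaled by the variance expected from counting alone.

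**Figure D1:**
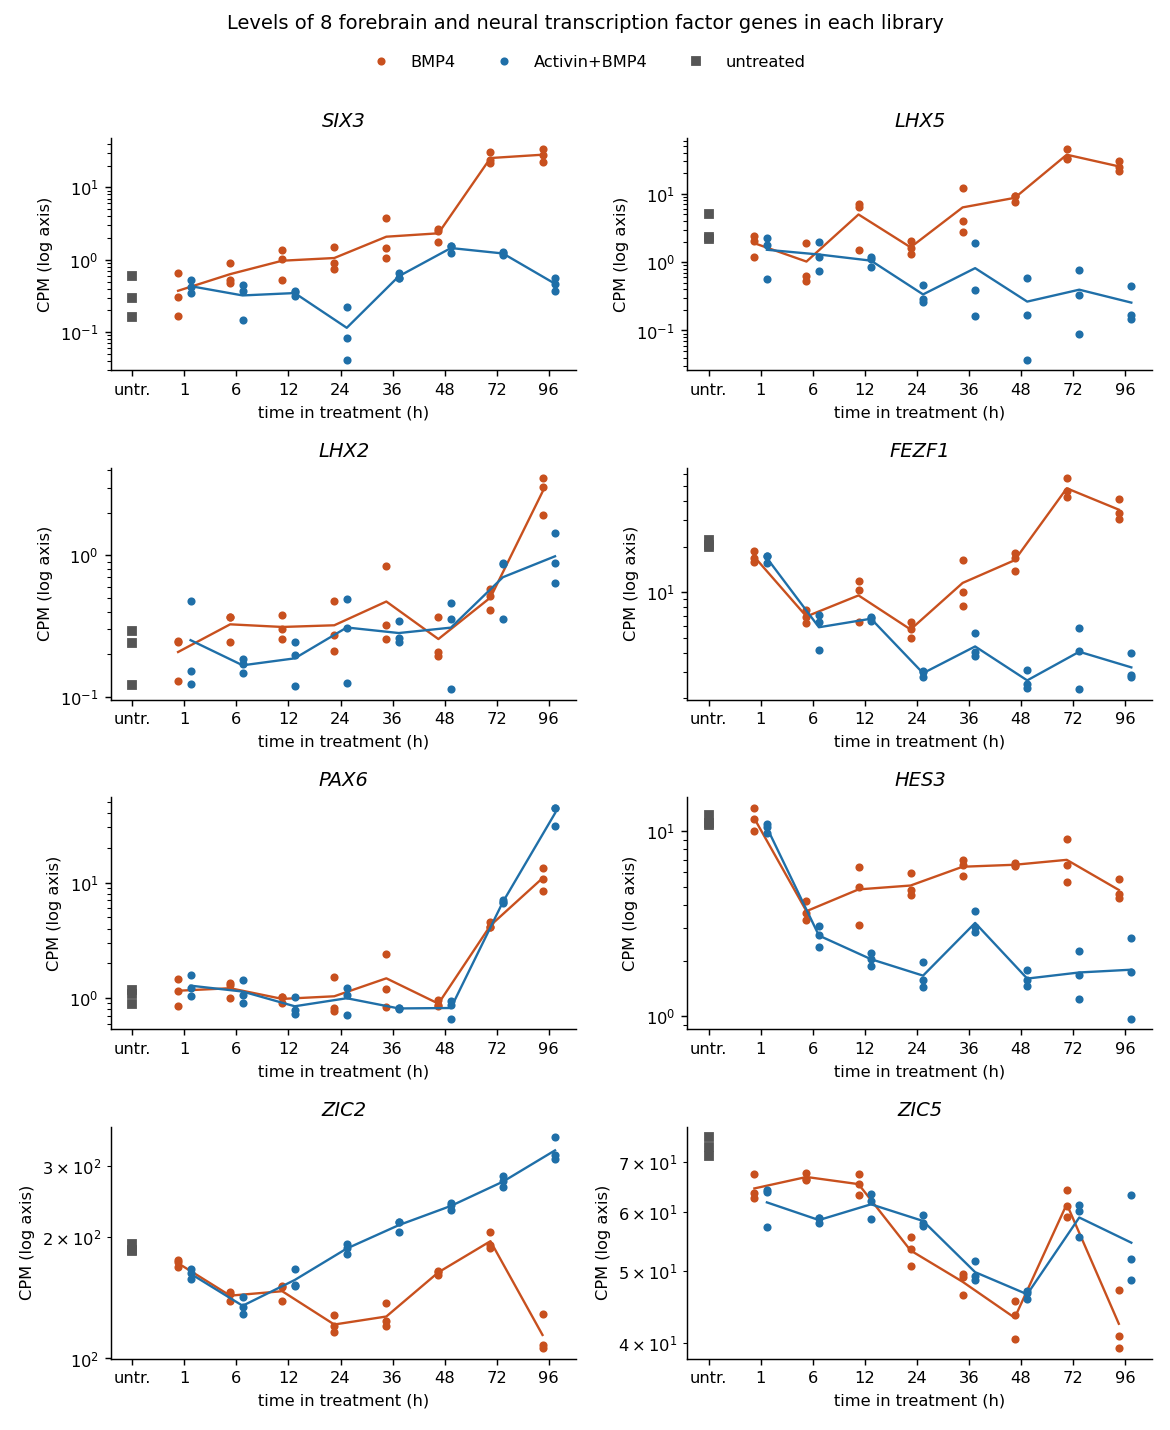
Level of each gene in every library (points, CPM on a log axis) by time in treatment in hours, with lines through the group means, for BMP4, Activin+BMP4 and untreated cells. SIX3, LHX5 and FEZF1 lie furthest apart by condition at 72 and 96 h (28.2 and 0.465 CPM for SIX3 at 96 h of BMP4 and Activin+BMP4), PAX6 and ZIC2 are highest in Activin+BMP4 at 96 h, and ZIC5 varies least.

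SIX3 showed the widest range of the 8 genes. It lies on chromosome 2 (GRCh38 chr2:44941898-44946077, plus strand). In BMP4 its level was 22.2, 28.4 and 34.1 CPM in the 3 libraries at 96 h, against 0.371, 0.469 and 0.557 CPM in Activin+BMP4 at 96 h, and 0.161, 0.603 and 0.293 CPM in untreated cells. All 3 BMP4 libraries thus lay far above the others, while the Activin+BMP4 and untreated libraries overlapped. BMP4 exceeded Activin+BMP4 at 96 h by a log2 fold change of 5.91 ± 0.33 (SE), and untreated cells by 6.30 ± 0.35 (6.94 for SIX3 without untreated replicate 2). The step came between 48 and 72 h, with 1.78 to 2.69 CPM at 48 h of BMP4 and 21.5 to 31.2 CPM at 72 h. In Activin+BMP4 the highest mean was 1.45 ± 0.184 CPM, at 48 h, and the lowest 0.115 ± 0.0935 CPM, at 24 h, which rests on 8 counts over 3 libraries. The ratio of its highest to its lowest group mean was 246.

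In the order of its 17 group means, SIX3 was highest at 96 and 72 h of BMP4, which overlapped (28.2 ± 5.95 and 25.4 ± 5.16 CPM), and no other group came above 2.32 ± 0.477 CPM, at 48 h of BMP4. Of the 16 pairs of neighbours in that order, 14 overlapped. SIX3-AS1, an antisense RNA named after the gene, had 0.618 ± 0.428 CPM at 96 h of BMP4 and 0.524 ± 0.127 CPM at 72 h, and had no count at 96 h of Activin+BMP4. Its group means had a Pearson r of 0.94 with those of SIX3 over the 17 groups, on log2(mean CPM + 0.5). No other group mean of SIX3-AS1 was above 0.0704 CPM, so this r rests on 72 and 96 h of BMP4. The neighbouring SIX2, 59084 bases away on the opposite strand, did not share the profile (r = 0.09) and was highest at 48 h of Activin+BMP4, at 2.68 ± 0.166 CPM.

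LHX5 had the largest ratio between the conditions. The gene lies at chr12:113462034-113472280 on the minus strand. At 72 h it had 45.5, 32.7 and 33.6 CPM in BMP4, against 0.0885, 0.330 and 0.767 CPM in Activin+BMP4. At 96 h it had 21.3, 24.3 and 29.8 CPM in BMP4 and 0.148, 0.167 and 0.452 CPM in Activin+BMP4. The untreated libraries lay between them, with 2.33, 5.07 and 2.18 CPM, and overlapped neither condition at either time. The log2 fold change of BMP4 over Activin+BMP4 was 6.49 ± 0.58 (SE) at 72 h and 6.59 ± 0.62 at 96 h. Without replicate 3 of Activin+BMP4 the value at 72 h was 7.42, and without replicate 3 of Activin+BMP4 at 96 h, the library that stood apart, the value at 96 h was 7.27.

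LHX5 was uneven among replicates before 48 h. At 6 h it had 0.534, 0.623 and 1.90 CPM in BMP4 and 0.738, 1.19 and 1.95 CPM in Activin+BMP4, all below the untreated libraries, with a log2 fold change over untreated of -1.64 ± 0.58 (SE) and -1.31 ± 0.56. At 12 h of BMP4 the libraries had 6.98, 6.44 and 1.51 CPM, and at 36 h of BMP4 12.2, 3.97 and 2.78 CPM. Its group mean in BMP4 accordingly did not change in 1 direction with time: it was 4.97 ± 3.02 CPM at 12 h, 1.65 ± 0.359 CPM at 24 h and 6.31 ± 5.12 CPM at 36 h. From 48 h on the BMP4 replicates were closer together, with 7.52 to 9.36 CPM at 48 h. In Activin+BMP4 no library exceeded 2.22 CPM at any time. LHX5-AS1, transcribed from the opposite strand and sharing 70 exon bases with LHX5 (2.2% of its exons), followed it with r = 0.94 and reached 2.84 ± 0.605 CPM at 72 h of BMP4.

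FEZF1 differed from SIX3 and LHX5 in starting high. It is encoded at chr7:122301394-122310691 on the minus strand. At 1 h the gene had 15.9 to 18.6 CPM in BMP4 and 15.6 to 17.4 CPM in Activin+BMP4, against 20.5, 22.1 and 19.9 CPM in untreated cells. By 6 h it was lower in both conditions, at 6.27, 6.89 and 7.62 CPM in BMP4 and 4.17, 6.40 and 7.07 CPM in Activin+BMP4, with neither condition overlapping the untreated libraries. Over untreated cells the log2 fold change at 6 h was -1.59 ± 0.20 (SE) in BMP4 and -1.82 ± 0.20 in Activin+BMP4. These comparisons share the untreated libraries.

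From 24 h on the conditions did not overlap, with 5.69 ± 0.686 CPM in BMP4 and 2.93 ± 0.154 CPM in Activin+BMP4 at 24 h. In BMP4, FEZF1 had 16.2 ± 2.14 CPM at 48 h and 56.3, 42.7 and 46.2 CPM at 72 h, above every untreated library, and 30.6, 33.3 and 41.1 CPM at 96 h. In Activin+BMP4 it had 2.62 ± 0.391 CPM at 48 h, 2.30, 4.08 and 5.79 CPM at 72 h and 2.78, 2.85 and 3.97 CPM at 96 h. The log2 fold change of BMP4 over Activin+BMP4 was 2.63 ± 0.24 at 48 h, 3.56 ± 0.21 at 72 h and 3.45 ± 0.22 at 96 h. FEZF1-AS1 shares 611 exon bases with FEZF1 on the opposite strand, 23.4% of the exons of FEZF1, and whether the counting used strand is not stated in the sources used here. The group means of FEZF1-AS1 went with those of FEZF1 (r = 0.92), but the courses differed in part. The antisense RNA had 9.77 ± 3.13 CPM at 96 h of BMP4, 1.12 ± 0.569 CPM at 96 h of Activin+BMP4 and 8.33 ± 0.694 CPM in untreated cells. Its highest mean was 10.4 ± 1.21 CPM, at 1 h of BMP4. At 72 h of BMP4 it had 9.72 ± 0.898 CPM, against 48.4 ± 7.01 CPM of FEZF1. The counts of this pair cannot be separated with certainty.

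HES3 shared the early part of the FEZF1 course. The gene is short, with 0.70 kb of exon at chr1:6244192-6245578 on the plus strand. Its level was 10.1 to 13.4 CPM at 1 h of BMP4, against 10.8, 11.1 and 12.2 CPM in untreated cells. At 6 h it was 3.30, 4.21 and 3.60 CPM in BMP4 and 2.36, 3.08 and 2.76 CPM in Activin+BMP4, all below the untreated libraries. In BMP4 it later stood between these levels, at 6.59, 6.72 and 6.49 CPM at 48 h, against 1.77, 1.45 and 1.58 CPM in Activin+BMP4. BMP4 over Activin+BMP4 gave a log2 fold change of 2.04 ± 0.23 (SE) at 48 h, 2.02 ± 0.23 at 72 h and 1.44 ± 0.23 at 96 h, and no BMP4 group after 1 h reached the untreated range. The nearest gene on its left, ICMT, which encodes a protein methyltransferase and lies 8220 bases away, had group means that went with those of HES3 (r = 0.89) over a far narrower range, 166 to 256 CPM. For GPR153, which is closer, 1768 bases away on the right, r with HES3 was 0.4.

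The RefSeq promoter windows of FEZF1 and HES3, which were called lower than in untreated cells at 6 h in both conditions, are shown together (GRCh38.p14, from 250 bases before to 50 after the most upstream listed start, 5′ to 3′ on the gene's strand). Capitals mark exact matches, on either strand, to the TATA box (TATAAA), the CCAAT box, the homeodomain core (TAATTA) and a GC element (GGCGCC), and no match overlapped another in these windows.
FEZF1, chr7:122304701-122305000 (minus strand): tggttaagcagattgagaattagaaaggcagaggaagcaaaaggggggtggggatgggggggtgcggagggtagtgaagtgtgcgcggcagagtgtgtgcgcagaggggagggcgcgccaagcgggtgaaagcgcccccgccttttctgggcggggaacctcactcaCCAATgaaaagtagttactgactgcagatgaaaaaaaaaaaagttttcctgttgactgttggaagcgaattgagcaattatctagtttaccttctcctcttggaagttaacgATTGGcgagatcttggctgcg
HES3, chr1:6243929-6244228 (plus strand): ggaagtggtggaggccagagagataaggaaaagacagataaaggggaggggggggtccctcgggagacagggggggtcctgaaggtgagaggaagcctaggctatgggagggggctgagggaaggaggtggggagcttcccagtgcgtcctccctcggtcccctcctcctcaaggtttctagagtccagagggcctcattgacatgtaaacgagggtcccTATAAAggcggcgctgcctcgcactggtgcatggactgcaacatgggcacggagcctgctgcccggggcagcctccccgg
HES3 has a TATAAA match that begins 30 bases before the start, and 11.5% of the 35116 promoter windows in the table hold such a match. FEZF1 has a pair of CCAAT matches, one on each strand, and 34.6% of windows hold at least 1. Neither window holds TAATTA (4.84% of all windows) or GGCGCC (19.2%), which says only that these letters are not in these windows. The printed FEZF1 matches lie at positions -83 and 30 from the start. The window of the second listed FEZF1 start, which is not printed, overlaps the printed one. It holds the match at 30 again, at position -210 from its own start, and other CCAAT matches at -135 and -94. Windows were listed for 6 of the 8 genes.

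PAX6 was low in untreated cells and highest at 96 h of Activin+BMP4. It spans chr11:31784779-31818062 on the minus strand. Up to 48 h both conditions stayed between 0.665 and 1.58 CPM, except BMP4 36 h replicate 1, at 2.42 CPM, and untreated cells had 1.17, 0.885 and 1.09 CPM. At 72 h it was 4.52, 4.11 and 4.13 CPM in BMP4 and 6.77, 7.01 and 6.63 CPM in Activin+BMP4. At 96 h it was 8.53, 10.8 and 13.4 CPM in BMP4 and 43.8, 44.2 and 31.1 CPM in Activin+BMP4. The groups overlapped at neither time. The log2 fold change of BMP4 over Activin+BMP4 was -0.67 ± 0.19 (SE) at 72 h and -1.86 ± 0.17 at 96 h, and at 96 h the change over untreated was 3.38 ± 0.23 in BMP4 and 5.24 ± 0.22 in Activin+BMP4.

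Part of the PAX6 exons lies opposite other genes: ELP4, a subunit of the Elongator complex, shares 5241 exon bases with it (25.2% of the PAX6 exons) and the RNA PAUPAR 191 bases. ELP4 had 18.6 ± 1.98 CPM at 96 h of BMP4, 20.9 ± 1.74 CPM at 96 h of Activin+BMP4 and 13.1 ± 0.887 CPM in untreated cells. The r of its group means with those of PAX6 was 0.63, and the counts in the shared exons cannot be assigned with certainty. At 96 h of Activin+BMP4, replicate 3 was the library with the lowest PAX6 level and the highest level of the 7 other genes. Without it the log2 fold change of BMP4 over Activin+BMP4 at 96 h was -2.01 for PAX6.

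LHX2 stayed low in every group before 96 h. The gene is at chr9:124001670-124033301 on the plus strand. At 96 h it had 1.92, 3.03 and 3.51 CPM in BMP4, against 0.889, 0.636 and 1.43 CPM in Activin+BMP4 and 0.241, 0.121 and 0.293 CPM in untreated cells. None of these groups overlapped. At 72 h the order of the conditions was the other way and the libraries overlapped, with 0.503 ± 0.0862 CPM in BMP4 and 0.700 ± 0.300 CPM in Activin+BMP4. The log2 fold change of BMP4 over Activin+BMP4 was -0.48 ± 0.43 (SE) at 72 h and 1.52 ± 0.36 at 96 h. Before 72 h its group sums ran from 14 to 33 counts over 3 libraries. The libraries of the conditions did not overlap at 6 h (0.325 ± 0.0717 CPM in BMP4 and 0.167 ± 0.0187 CPM in Activin+BMP4) or at 12 h (0.311 ± 0.0625 and 0.187 ± 0.0628 CPM in the same order), and the fit called neither. In its order of levels, 15 of the 16 neighbouring pairs overlapped.

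ZIC2 had the highest level per kilobase of exon of the 8 genes in every group. ZIC2 and ZIC5 lie head to head on chromosome 13, ZIC2 at chr13:99981772-99986773 on the plus strand and ZIC5 at chr13:99962964-99971909 on the minus strand, with starts 9.9 kb apart. Per kilobase of exon, untreated cells had 56.5 CPM of ZIC2 and 15.8 CPM of ZIC5, and on the same scale 16.3 CPM of HES3, 7.98 CPM of FEZF1 and 1.02 CPM or less of the 4 other genes. Exon length here is that of all annotated exons of a gene together, 20.81 kb for PAX6, so its value per kilobase is low for a gene with many annotated transcripts.

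Despite this arrangement the pair did not share a profile (r = 0.09 over the 17 groups). ZIC2 was higher at each later time in Activin+BMP4 after 6 h, with 156 ± 8.59 CPM at 12 h, 187 ± 6.03 CPM at 24 h, 238 ± 4.71 CPM at 48 h and 274 ± 8.15 CPM at 72 h. At 96 h it had 108, 106 and 129 CPM in BMP4, against 311, 318 and 352 CPM in Activin+BMP4 and 184, 185 and 192 CPM in untreated cells, with no overlap between any of the 3 groups. Between BMP4 and Activin+BMP4 the log2 fold change was -0.62 ± 0.06 (SE) at 24 h, -0.49 ± 0.05 at 72 h and -1.51 ± 0.06 at 96 h. In BMP4 the ZIC2 level was not steady in direction, with 122 ± 5.94 CPM at 24 h, 195 ± 9.71 CPM at 72 h and 114 ± 12.8 CPM at 96 h.

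ZIC5 ranged only from 42.4 ± 4.14 CPM at 96 h of BMP4 to 73.4 ± 2.14 CPM in untreated cells, a ratio of 1.73. All 16 treated groups had lower means than untreated cells. In both conditions the level was low at 48 h (43.2 ± 2.51 CPM in BMP4 and 46.5 ± 0.627 CPM in Activin+BMP4) and higher at 72 h (61.5 ± 2.58 and 59.0 ± 3.07 CPM in the same order). At 96 h the libraries had 39.3, 40.8 and 47.1 CPM in BMP4 and 48.5, 51.9 and 63.2 CPM in Activin+BMP4, and the log2 fold change of BMP4 over Activin+BMP4 was -0.36 ± 0.06.

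**Figure D2:**
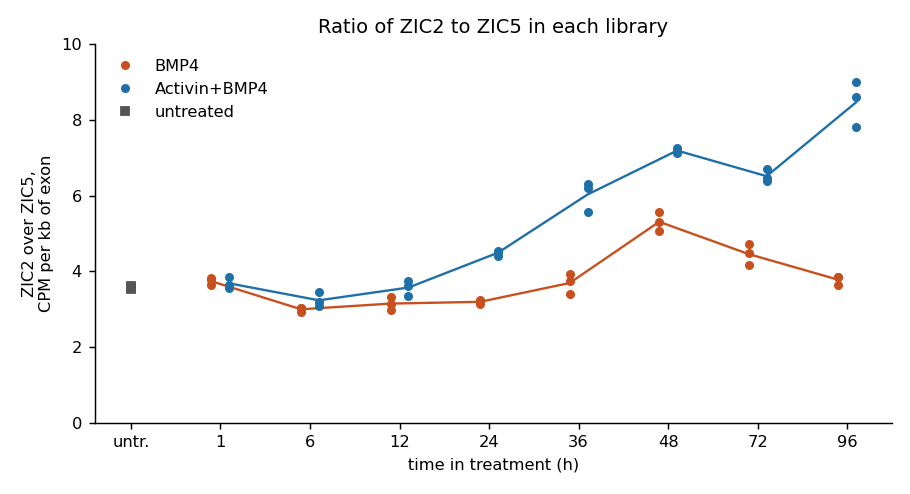
Ratio of ZIC2 to ZIC5 (each as CPM per kb of exon) in every library by time in treatment in hours, with lines through the group means. The ratio is 3.57 ± 0.04 in untreated cells, and the conditions overlap at 1 h and at no later time.

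The ratio of ZIC2 to ZIC5 per kilobase of exon was 3.64 to 3.85 at 96 h of BMP4, 7.81 to 8.99 at 96 h of Activin+BMP4 and 3.54 to 3.61 in untreated cells. In Activin+BMP4 it was 4.49 ± 0.07 at 24 h, 6.03 ± 0.40 at 36 h and 7.19 ± 0.07 at 48 h. In BMP4 the highest group ratio was 5.31 ± 0.26, at 48 h. The conditions overlapped at 1 h and at none of the later times. The promoter windows of the pair, from the most upstream listed start of each gene, are printed for comparison, with the same use of capitals.
ZIC2, chr13:99981534-99981833 (plus strand): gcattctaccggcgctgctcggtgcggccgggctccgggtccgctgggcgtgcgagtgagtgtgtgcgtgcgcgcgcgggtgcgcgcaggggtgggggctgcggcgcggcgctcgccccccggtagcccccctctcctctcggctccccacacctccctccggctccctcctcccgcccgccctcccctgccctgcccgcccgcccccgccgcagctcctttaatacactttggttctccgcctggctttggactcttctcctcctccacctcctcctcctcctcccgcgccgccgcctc
ZIC5, chr13:99971860-99972159 (minus strand): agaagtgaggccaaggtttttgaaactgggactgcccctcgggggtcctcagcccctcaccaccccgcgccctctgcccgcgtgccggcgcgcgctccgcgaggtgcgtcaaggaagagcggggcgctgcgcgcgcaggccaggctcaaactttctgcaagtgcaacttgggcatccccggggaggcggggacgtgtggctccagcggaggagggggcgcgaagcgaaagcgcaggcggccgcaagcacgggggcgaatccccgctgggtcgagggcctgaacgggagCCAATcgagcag
The ZIC2 window holds none of the 4 motifs, and the ZIC5 window holds 1 CCAAT match, at position 39 from its start. The window of the second listed ZIC5 start, which is not printed, holds that match and others, at positions -80, -62 and 7 from that start.

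**Figure D3:**
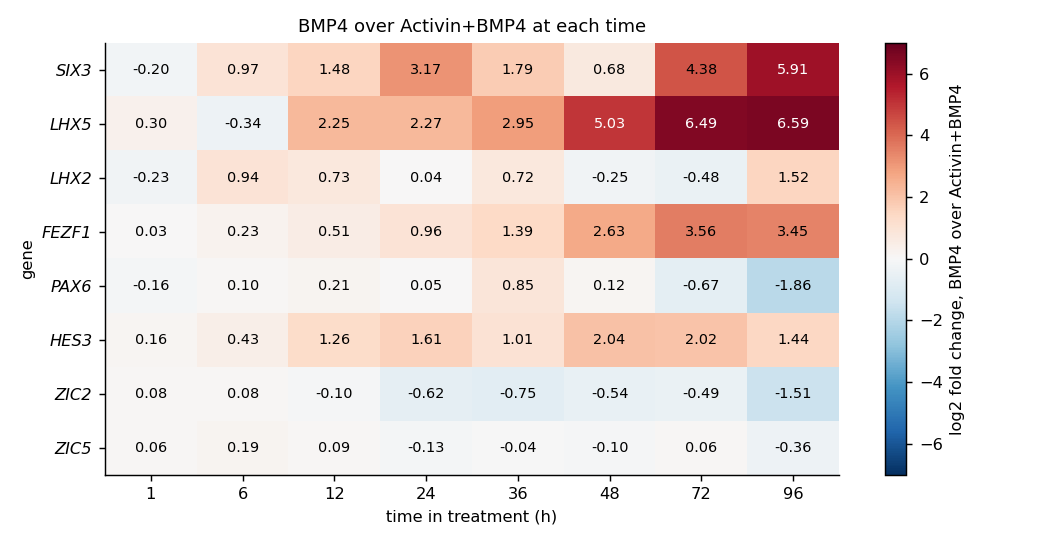
Log2 fold change of BMP4 over Activin+BMP4 for each of the 8 genes (rows) at each time in hours (columns). Red is higher in BMP4, and the values run from -1.86 for PAX6 to 6.59 for LHX5, both at 96 h.

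The ratios between the conditions opened at different times for different genes. At 1 h they ran from -0.23 for LHX2 to 0.30 for LHX5 on the log2 scale. LHX5 and HES3 stood at 2.25 ± 0.55 and 1.26 ± 0.23 (SE) at 12 h, which for LHX5 rested on the uneven BMP4 libraries. Without the 12 h library that stood apart they were 1.92 and 1.00. SIX3 stood at 1.48 ± 0.48 at 12 h (1.43 without that library) and passed through 3.17 ± 0.62 at 24 h, where its Activin+BMP4 level was lowest, 0.68 ± 0.32 at 48 h and 4.38 ± 0.29 at 72 h. FEZF1 went on widening up to 72 h. A gene was called where the Benjamini-Hochberg adjusted p of edgeR's quasi-likelihood test, over all 19603 tested genes, was under 0.05 and the level differed by 2 times or more. Between the conditions 3 of the 8 genes were called at 12 h (beside 1.42% of all tested genes), 3 at 24 h (4.01%) and 4 at 36 h (5.58%). The later counts were 3 at 48 h (9.25%), 4 at 72 h (9.63%) and 7 at 96 h (15.6%). Against untreated cells at 6 h, 3 were called in BMP4 (4.99%) and 2 in Activin+BMP4 (5.69%). As the genes were chosen on these contrasts, nothing is read from those counts.

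In 6 of the 17 groups, 1 library was the highest of the 3 for at least 7 of the 8 genes, and in the 11 other groups the top library was the highest for 3 to 6. The same count was not made over all tested genes, so whether it is particular to the 8 genes is not known. At 36 h of BMP4, replicate 1 was the highest of the 3 libraries for 7 of the 8 genes, among them SIX3 with 3.74, 1.45 and 1.05 CPM and FEZF1 with 16.4, 10.1 and 8.06 CPM. At 96 h of BMP4, replicate 3 was the highest for all 8, and at 72 h of BMP4 replicate 1 for 7. The 12 h BMP4 library that stood apart was the highest for 7.

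**Figure D4:**
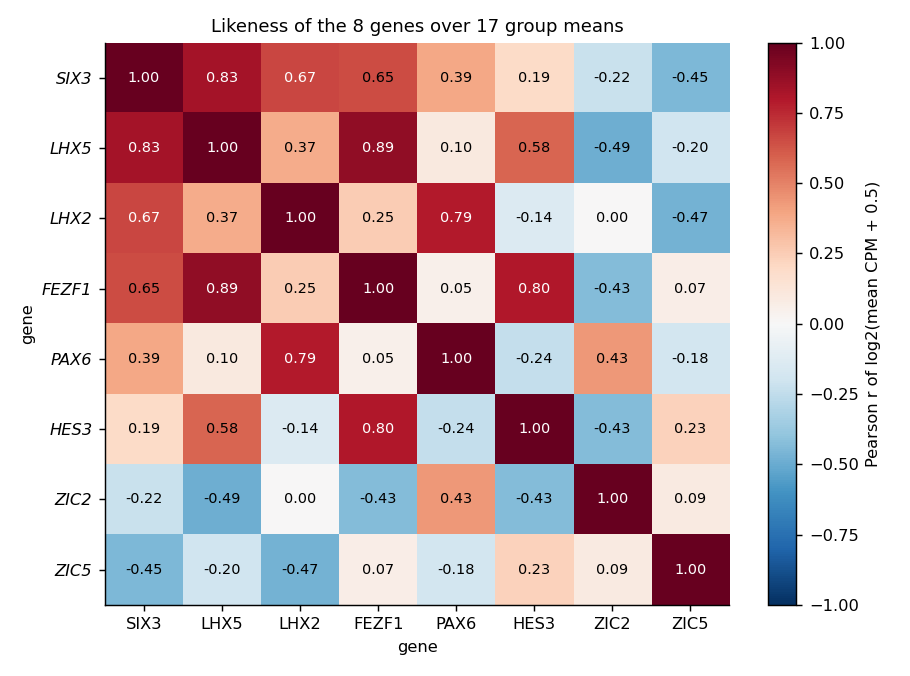
Pearson r between the profiles of each pair of the 8 genes over the 17 group means, on log2(mean CPM + 0.5). LHX5 and FEZF1 have the highest r (0.89), and LHX5 and ZIC2 the lowest (-0.49).

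Among themselves the 8 genes fell into more than 1 kind of profile. Over the 17 groups, r was 0.89 for LHX5 with FEZF1, 0.83 for SIX3 with LHX5, 0.80 for FEZF1 with HES3 and 0.79 for LHX2 with PAX6, but 0.05 for FEZF1 with PAX6 and -0.49 for LHX5 with ZIC2. These are descriptions over points that share libraries and a time course. Among 12454 other genes with a group mean of at least 5 CPM, the closest to SIX3 were LMO1 (r = 0.961), TBL1X (0.961) and TANC2 (0.958), and the closest to LHX5 were CDH9 (0.964), GREB1L (0.954) and KRT7 (0.943), a keratin gene of simple epithelia that is also a marker in the amnion list. FEZF1 was most like MAF (0.942), FEZF1-AS1 (0.920) and GLI3 (0.906), and LAMA5 (0.921) and RIPOR2 (0.919) were among the 3 genes most like HES3.

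For LHX2 the closest were GBP4 (0.963), PITX1 (0.955) and TMEM88 (0.95). LHX2 had a mean of 2.82 CPM at 96 h of BMP4 and at most 0.984 CPM in any other group, so these r values rest on few groups. For PAX6 the closest were PDZK1 (0.979), CD63 (0.973) and CTNNBIP1 (0.971). PDZK1, which encodes a scaffold protein of epithelial membranes, had 7.90 ± 0.641 CPM at 96 h of BMP4, 24.0 ± 7.17 CPM at 96 h of Activin+BMP4 and 0.411 ± 0.239 CPM in untreated cells. ZIC2 was most like IFITM2 (0.954), PPFIA1 (0.946) and OR52A1 (0.923). For ZIC5 no gene came closer than MYH14 (0.876), followed by RGS17 (0.850) and WDFY1 (0.839).

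Other genes of forebrain and neural progenitor cells were called in both directions between BMP4 and Activin+BMP4 at 96 h. Of 50 such genes in a list drawn up for this comparison, 36 passed the filter on low counts and 14 did not, among them FEZF2, SIX6, SOX1, HES5, NEUROG1 and NEUROG2. Genes that passed only through the group where they are high had to differ, so the counts describe the list and are no support for a direction. All lists were drawn up with earlier results of these data known. The medians of the lists and the adjusted p-values of listed genes are therefore descriptive too. At 96 h, 22 were called higher in BMP4 and 3 lower, beside 7.62% and 7.95% of all tested genes, and the median log2 fold change was 1.44 in the list and 0 over all genes. Without the 96 h library that stood apart, 20 were called higher and 4 lower. At 48 h 12 were called higher (4.86% of all genes) and 1 lower (4.39%).

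**Figure D5:**
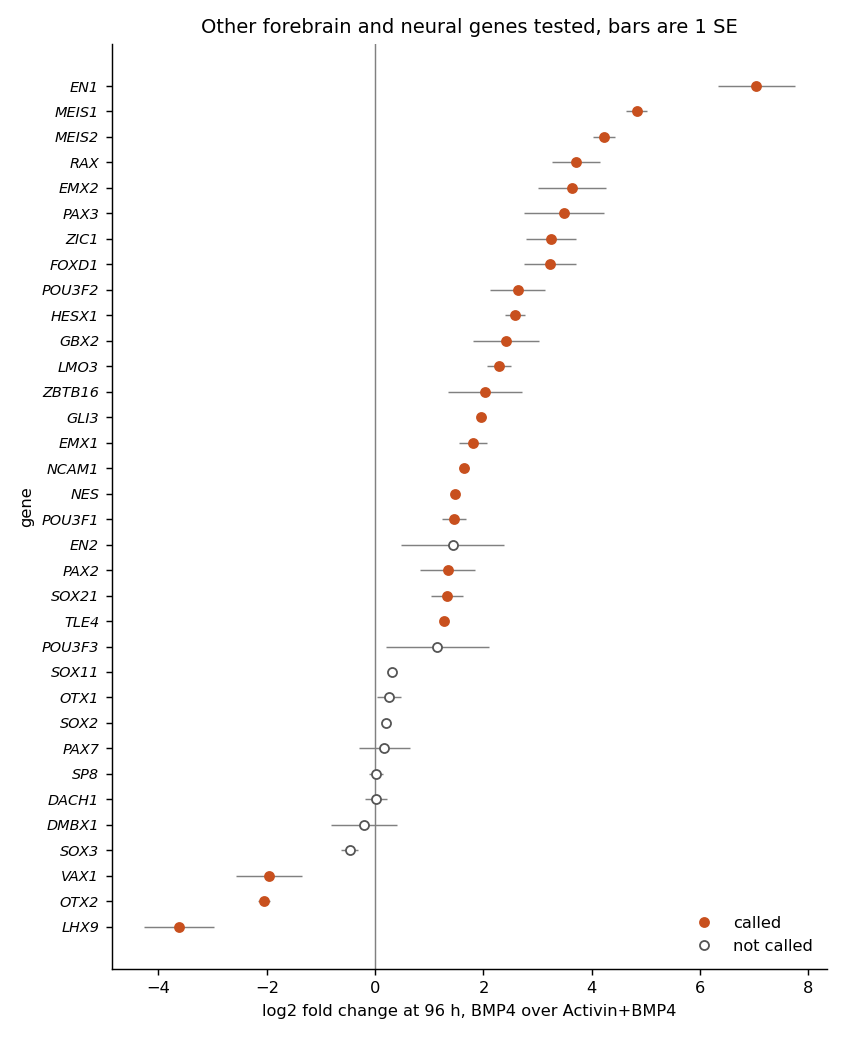
Log2 fold change of BMP4 over Activin+BMP4 at 96 h (horizontal axis, bars are 1 SE) for 34 of the 36 other forebrain and neural genes that passed the filter, filled where called. The 21 genes shown that were called higher in BMP4 lie to the right, and LHX9, OTX2 and VAX1 were called lower.

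Among the forebrain genes, RAX, an eye field homeobox gene, had 6.21 ± 2.06 CPM in BMP4 and 0.473 ± 0.168 CPM in Activin+BMP4 at 96 h. Its level in BMP4 exceeded that in Activin+BMP4 by log2 3.71 ± 0.45 (SE, edgeR adjusted p = 2.53e-09). HESX1, a repressor of the anterior neural plate and pituitary, had 7.53 ± 0.885 and 1.26 ± 0.251 CPM in those groups (log2 2.58 ± 0.19, adjusted p = 1.62e-15). Its untreated level was 11.4 ± 0.828 CPM, so that against untreated cells it was called lower in Activin+BMP4 (log2 -3.17 ± 0.19, adjusted p = 5.16e-19) and not called in BMP4 (log2 -0.59 ± 0.15). OTX2 had 71.4 ± 7.5 CPM in BMP4 and 295 ± 23 CPM in Activin+BMP4 (log2 -2.05 ± 0.11, adjusted p = 1.94e-20). TLE4, a Groucho co-repressor, had 83.0 ± 3.32 and 34.4 ± 1.15 CPM (log2 1.27 ± 0.05, adjusted p = 1.80e-24).

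The neural progenitor genes with the largest differences were the TALE homeobox genes MEIS1 and MEIS2, which are also used outside the nervous system. MEIS1 had 38.3 ± 5.90 CPM in BMP4 and 1.34 ± 0.0910 CPM in Activin+BMP4 at 96 h (log2 4.83 ± 0.19, edgeR adjusted p = 7.56e-25), and MEIS2 43.6 ± 2.76 and 2.32 ± 0.151 CPM (log2 4.23 ± 0.20, adjusted p = 8.36e-22). GLI3, a mediator of Hedgehog signalling, had 91.1 ± 4.96 and 23.4 ± 1.64 CPM (log2 1.96 ± 0.08, adjusted p = 1.53e-24). The cell adhesion gene NCAM1 (log2 1.64 ± 0.09) and the intermediate filament gene NES (log2 1.48 ± 0.07) were called higher too. At 48 h MEIS1 (log2 4.81 ± 0.22), SOX21 (3.98 ± 0.38), MEIS2 (3.68 ± 0.28), GLI3 (1.47 ± 0.08) and SOX2 (1.05 ± 0.09) were already called higher in BMP4. At 96 h SOX2 had 152 ± 11.3 CPM in BMP4 and 132 ± 19.7 CPM in Activin+BMP4, which was not called.

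Against untreated cells at 96 h, 19 of the 36 tested genes of the list were called higher and 3 lower in BMP4 (14.6% and 8.54% of all tested genes). In Activin+BMP4, 13 of the list were called higher and 8 lower (16.5% and 9.96%). The median log2 fold change was 1.54 in BMP4, beside 0.04 over all genes, and 0.04 in Activin+BMP4, beside 0.04. OTX1, NCAM1 and DACH1 rose in both conditions, OTX1 by log2 2.70 ± 0.27 in BMP4 (edgeR adjusted p = 6.37e-12) and 2.45 ± 0.27 in Activin+BMP4 (adjusted p = 8.29e-11). SOX2, SOX3 and LMO3 fell in both. SOX2, a gene of pluripotent and neural cells, had 152 ± 11.3 CPM at 96 h of BMP4, 132 ± 19.7 CPM at 96 h of Activin+BMP4 and 319 ± 6.95 CPM in untreated cells. LMO3 fell by 1.88 ± 0.16 on the log2 scale in BMP4, and in Activin+BMP4 it fell by 4.15 ± 0.20. With only the groups compared in the model, 8 and not 13 of the list were called higher in Activin+BMP4. These comparisons share the untreated libraries.

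Relatives of the 8 genes differed between the conditions in both directions. Of 29 paralogues, 19 passed the filter, and at 96 h 6 were called higher and 3 lower in BMP4 than in Activin+BMP4 (beside 7.62% and 7.95% of all tested genes), with a median log2 fold change of -0.02 in the list and 0 over all genes. Here too, genes that passed the filter only through the group where they are high had to differ. These counts describe the list and are no support for a direction. LHX1, a LIM-homeodomain gene of the node and anterior mesendoderm and the closest relative of LHX5, differed between the conditions in the other direction. At 96 h it had 38.7 ± 9.26 CPM in BMP4 and 101 ± 19.4 CPM in Activin+BMP4 (log2 -1.39 ± 0.10, edgeR adjusted p = 2.09e-15). Both levels were above the 0.680 ± 0.0761 CPM of untreated cells, so in BMP4 LHX1 was higher than in untreated cells, as LHX5 was. At 48 h it had 6.46 ± 0.339 CPM in BMP4 and 158 ± 8.47 CPM in Activin+BMP4 (log2 -4.61 ± 0.13, adjusted p = 2.56e-29). HES1, a Notch and BMP target, had 23.5 ± 1.18 and 9.86 ± 1.16 CPM at 96 h (log2 1.25 ± 0.10, adjusted p = 3.90e-14), and at 6 h, when HES3 was low, it rose against untreated cells by log2 1.78 ± 0.11 in BMP4 (adjusted p = 3.05e-17) and 1.49 ± 0.11 in Activin+BMP4 (adjusted p = 1.30e-14). HES6 was lower in BMP4 than in Activin+BMP4 at 96 h, by 1.16 ± 0.11 on the log2 scale.

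In the LIM-homeodomain family LHX8 had 1.16 CPM in BMP4 and 0.117 CPM in Activin+BMP4 at 96 h (log2 3.25, called), and LHX9, a relative of LHX2, 0.117 and 1.51 CPM (log2 -3.62, called). LHX4 was low in both (0.662 and 1.25 CPM) and LHX6 had 0.523 and 0.664 CPM, neither being called. In the PAX family PAX3 (1.22 and 0.103 CPM) and PAX2 (3.43 and 1.35 CPM) were called higher in BMP4, while PAX5, PAX7 and PAX9 were not called, with log2 fold changes of 0.82, 0.17 and -0.02. SIX4 had 30.6 CPM in BMP4 and 30.4 CPM in Activin+BMP4, and SIX5 18.1 and 18.8 CPM. HES4 had 1.22 and 2.36 CPM and was not called, and HES7 had 0.708 and 0.138 CPM and was called. SIX6, FEZF2, LHX3, PAX1, PAX4, PAX8, HES2, HES5 and ZIC4 did not pass the filter, their higher mean in these groups being at most 0.311 CPM.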

How the data were processed

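Whole-number counts per gene for 51 libraries of H1 cells were used as deposited. RSEM 1.3.0, STAR 2.5.2a, cutadapt 1.5 and the GRCh38 build are named, without roles, in the submitters' processing notes. Whether the counts are rounded estimates, the annotation release and the strand setting are not given in the sources used here. Per the labels' protocols, RNA was column purified and libraries were made with the KAPA RNA HyperPrep kit. A symbol matched 56948 of the 58051 Ensembl IDs (98.1%). Coordinates are from GENCODE v29 on GRCh38, and promoter windows from RefSeq (GRCh38.p14).

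With edgeR 4.0.16 in R 4.3.3, filterByExpr (minimum count 10, minimum total 15) kept 19603 genes, TMM factors ran from 0.966 to 1.03, and 1 mean per group was fitted to all 51 libraries for 24 comparisons by the quasi-likelihood F test with Benjamini-Hochberg adjustment. SE is the log2 fold change divided by the square root of F. CPM uses TMM-adjusted totals. No 2 libraries were identical. The fit was tested on simulated data. Alternatives were relative log expression (RLE) factors, no scaling, no filter, at least 1 CPM in 3 libraries, DESeq2 1.42.0, only the groups compared, a replicate block and each library left out. Those of the 8 genes at 12 and 72 h and for Activin+BMP4 at 6 h were added after the data were seen.

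The 8 genes and all lists were chosen with earlier results of these data known. Besides the 8 genes and their paralogues, up to 5 called genes per list, comparison and direction were named, those with the largest fold change whose higher group averaged 5 CPM or more and whose libraries did not overlap. Likeness names the 3 genes with the highest r. Values of some listed genes are not reported here, though the counts include them. Nearest genes and antisense RNAs could be named. Intervals for a share of counts were not needed, and depth limits the lowest genes.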

Additional observations from a re-analysis of the deposited data

Results flagged for a closer look

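At 96 h, 3 of the 8 genes lay on opposite sides of the untreated libraries in the conditions, with every library of a condition on the same side. Over all tested genes, 53.4% did not overlap between the conditions at 96 h, and 69.4% did not overlap with untreated cells in each condition. The share of all genes on opposite sides of untreated cells was not computed, so nothing is read from this count. LHX5 and FEZF1 were above untreated in BMP4 and below it in Activin+BMP4 (log2 fold change of BMP4 over Activin+BMP4 6.59 and 3.45), and ZIC2 was below untreated in BMP4 and above it in Activin+BMP4 (-1.51). Between the conditions, the fit across all genes called all 3. Against untreated cells at 96 h it called LHX5 in both conditions and FEZF1 in Activin+BMP4. It did not call FEZF1 in BMP4 (log2 0.75) or ZIC2 in BMP4 (-0.71) or in Activin+BMP4 (0.81). The genes had been chosen on these values, so the differences are a description and no test is drawn on. ZIC1, which is not one of the 8 genes, was called in opposite directions against untreated cells, higher at 1.60 ± 0.181 CPM in BMP4 and lower, with libraries that overlapped, at 0.161 ± 0.121 CPM in Activin+BMP4, against 0.473 ± 0.264 CPM in untreated cells, and the difference between the conditions was called by edgeR (log2 3.25 ± 0.46, adjusted p = 6.09e-08). All these ZIC1 levels are low.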

How the results depend on the processing

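Under the alternatives, 205 of 208 recomputed counts of called genes stayed within 1.5 times the value reported. With at least 1 CPM in 3 libraries required, 29 of the 50 other forebrain and neural genes were tested and 1 instead of 3 was called lower in BMP4 than in Activin+BMP4 at 96 h. With the fit limited to the groups compared, 23 were tested and 8 instead of 13 were called higher in Activin+BMP4 at 96 h than in untreated cells. Fewer of the listed genes were tested in both. Without BMP4 48 h replicate 2, 0 instead of 1 was called lower at 48 h, and over the 6 libraries of that comparison the count ran from 0 to 1. Of 724 recomputed log2 fold changes of the 8 genes, 0 of those called changed sign and 2 moved by more than the spread between replicates, both of LHX5: 6.39 without Activin+BMP4 48 h replicate 1 and 7.27 without Activin+BMP4 96 h replicate 3, against 5.03 and 6.59 with all libraries. That spread is a wide yardstick, since leaving out 1 of 3 libraries can hardly shift a group mean by as much. Little is therefore read from the count of 2 for the fits with a library left out. Depth limits LHX2 before 72 h and SIX3 and LHX5 in Activin+BMP4, with as few as 8 counts over a group.

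Replicate numbers recur across the groups, but they did not pair the libraries: the correlation of deviations from group means had a median of -0.01 for 408 same-numbered pairs, 19 of which exceeded 0.1, and in 0 of 24 comparisons did every pair exceed 0.1. With replicate number as a block, 3030 genes were called between BMP4 and Activin+BMP4 at 96 h (3052 without it) and 1808 at 48 h (1814), the list had 22 higher and 3 lower at 96 h, and no other call count moved by over 1.5 times.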
